A study of Mus musculus with 6 samples.

Results

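The insulin-like growth factor (IGF) system was examined in MC3T3-E1 cells, a pre-osteoblast line derived from mouse calvaria. The genes were taken by symbol as 2 ligands (Igf1, Igf2), 2 receptors (Igf1r, Igf2r) and the binding proteins Igfbp2 to Igfbp7, 10 genes in all. Igf2 and Igfbp3 were not analysed here, which left 8 of the 26187 genes listed for each library: Igf1, both receptors and 5 binding proteins. Poly(A) RNA was sequenced from 3 libraries of cells exposed for 2 days to 30 μg/mL of PAKG–8diol–PEG(S) MPs, called PAKG, and from 3 libraries of untreated cells, called OC. The MPs are small microparticles of a polymer built from α-ketoglutarate and 1,8-octanediol with polyethylene glycol. Both groups were kept in the same osteoconductive medium with serum, ascorbic acid and β-glycerophosphate, so all comparisons are of PAKG MPs on top of that medium. No group received a particle without α-ketoglutarate in these libraries, and all cells came from 1 cell line.

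IGF1 and IGF2 are small secreted proteins related to insulin. They act through the IGF1 receptor, a tyrosine kinase that passes the signal through insulin receptor substrates to PI3K and Akt, whereas the IGF2 receptor carries IGF2 and mannose 6-phosphate tagged enzymes to lysosomes. The IGF binding proteins hold the ligands outside the cell, and proteases that cut them set the ligands free. Bone cells make IGFs and several binding proteins, and store them in the matrix.

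Among the 8 genes, Igf1 and Igfbp4 were higher with PAKG MPs and Igfbp2 was lower, and for these 3 genes no PAKG library overlapped an OC library. Igf1 was 2.80-fold and Igfbp4 1.96-fold the OC mean, while Igfbp2 stood at 0.462 of it. Igf1r, Igf2r, Igfbp5, Igfbp6 and Igfbp7 did not pass the test, and their groups overlapped. The values were FPKM, fragment numbers scaled to transcript length and library size, so that levels of different genes can be set side by side per length. The limma test was run on log2(FPKM + 0.1) for the 12590 genes that averaged 0.5 FPKM or more, with Benjamini-Hochberg adjustment over all of them, and a gene was called at an adjusted p under 0.05. All 8 genes were above this filter.

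Over all genes tested, 5.97% were called higher and 8.73% lower with PAKG MPs, against 2 higher and 1 lower of the 8 IGF genes. With a change of at least 2-fold as well, 0.866% of all genes were higher and 0.58% lower, and of the IGF genes Igf1 was higher and Igfbp2 lower. For 13.7% of all genes the lowest PAKG value exceeded the highest OC value, and for 19.6% the highest PAKG value was under the lowest OC value, against 2 and 1 of the IGF genes. The median log2 fold change of the 8 genes was 0.166, beside -0.032 over all genes tested. With 8 genes these shares rest on 1 or 2 genes each. Of all called genes, 40.6% were higher with the deposited FPKM and 53.5% after rescaling each library to the same total (TPM), and the 3 IGF calls were made on both scales.

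The cells were checked against marker genes. All 8 osteoblast lineage markers were detected, with summed levels of 7037 to 7753 FPKM in PAKG and 4947 to 5956 FPKM in OC, so this sum was higher in PAKG as well. Col1a1 and Col1a2 made up 91.4 to 94.4% of it, and Spp1 was at 173 to 208 FPKM in PAKG and 242 to 288 FPKM in OC. The 2 endothelial markers with values summed to at most 0.03 FPKM, and the 4 adipocyte markers to at most 0.04 FPKM in PAKG and 1.2 FPKM in OC, the highest in OC replicate 3. Of 4 macrophage markers with values, Ptprc was at most 0.01 FPKM, and the list summed to 19.4 to 21.8 FPKM in PAKG and 12.4 to 16.8 FPKM in OC, nearly all of it Lyz2 and Cd14. Of 2 myoblast markers Myog was at most 0.04 FPKM, and Des was at 0.79 to 0.89 FPKM in PAKG and 0.62 to 0.70 FPKM in OC. Of 2 chondrocyte markers Col10a1 was at most 0.03 FPKM while Sox9 gave most of sums of 12.97 to 14.03 FPKM in PAKG and 7.21 to 8.35 FPKM in OC. The part of these lists in the IGF values was not tested. In bulk RNA, a larger share of cells with a transcript and more of it per cell cannot be told apart. Depth, estimated from the values themselves, ran from 31900000 to 42200000 fragments per library, at which 1 fragment on a transcript of 1 kb was worth 0.0237 to 0.0313 FPKM, far below the level of every IGF gene.

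Replicate 2 stood apart from replicates 1 and 3 in both groups, and by transcript length. Among genes whose longest transcript was under 2 kb, the median log2 difference of replicate 2 from the other two was -0.23 in PAKG and -0.18 in OC. Among genes of 5 kb and over it was 0.23 in both groups. The IGF genes followed this order: Igfbp2, Igfbp6 and Igfbp7, whose longest transcripts have 1112 to 1307 bases, were lowest in replicate 2 of both groups, and Igfbp5, Igf1r and Igf2r, with 6006 to 11409 bases, were highest there. Igf1, with 7052 bases, differed little, by 0.05 in PAKG and 0.04 in OC. What the replicate number marks is not stated, but deviations from the group means were correlated between same-numbered libraries, so a fit that takes the number as a replicate block is also given where it changes a call.

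**Figure D1:**
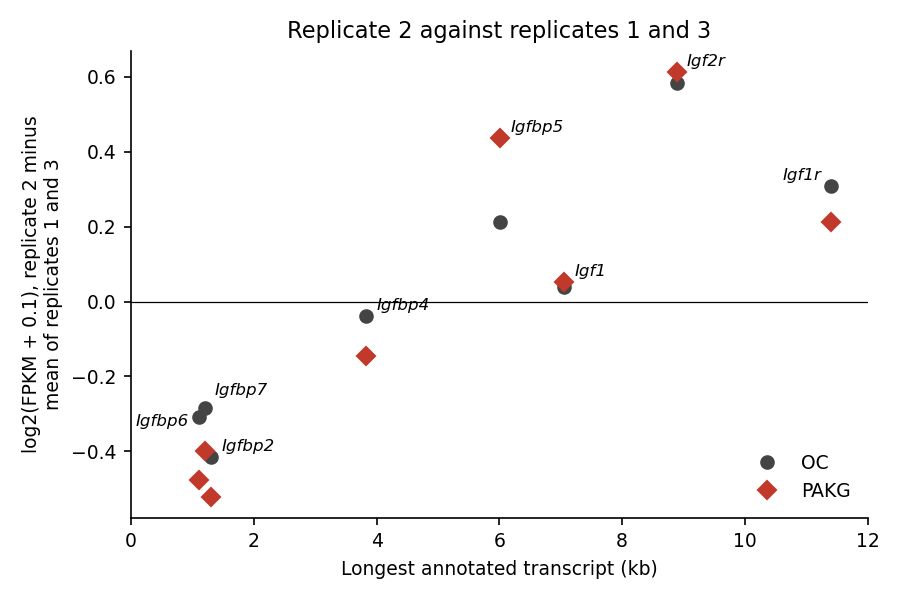
Difference of replicate 2 from the mean of replicates 1 and 3 on the log2(FPKM + 0.1) scale (y axis) against the longest annotated transcript in kb (x axis) for the 8 IGF genes, with dark circles for OC and red diamonds for PAKG. Igfbp2, Igfbp6 and Igfbp7 lie below 0 and Igf2r, Igfbp5 and Igf1r above it in both groups.

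Igf1 encodes the ligand that acts on both growth and survival of bone cells. It lies at chr10:87858265-87937042 on the plus strand of GRCm38 (ENSMUSG00000020053), and the longest of its 7 annotated transcripts has 7052 bases in 4 exons. Igf1 was at 5.10, 5.40 and 5.31 FPKM in PAKG replicates 1 to 3 and at 1.92, 1.92 and 1.81 FPKM in OC. The lowest PAKG library was above the highest OC library by more than the whole spread of either group. The means were 5.27 ± 0.154 FPKM and 1.88 ± 0.0635 FPKM (SD, n = 3 each). The log2 fold change was 1.44 (SE 0.0818, 95% interval 1.25 to 1.63, limma adjusted p = 0.000169), and it lay between 1.41 and 1.46 when any 1 library was left out.

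The antisense gene Igf1os overlaps Igf1 on the opposite strand. Its values were 0.15, 0.11 and 0.01 FPKM in PAKG and 0.02, 0.04 and 0 FPKM in OC, well under those of Igf1. The library kit keeps strand, but no source used here says whether the counting did.

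The start regions of the 3 genes that passed the test are shown for the sequence context of these changes. Each runs from 250 bases before to 50 bases after the start given by RefSeq on GRCm38.p6, 5′ to 3′ on the strand of the gene. Capitals mark exact matches, on either strand, to a TATA box (TATAAA), a GC box (GGGCGG), the core bound by RUNX factors (TGTGGT) or an E-box (CACGTG). For Igfbp2 the first of 2 listed starts is shown, and the other, at chr1:72825137-72825436, holds none of these letters.
Igf1, chr10:87860861-87861160, plus strand: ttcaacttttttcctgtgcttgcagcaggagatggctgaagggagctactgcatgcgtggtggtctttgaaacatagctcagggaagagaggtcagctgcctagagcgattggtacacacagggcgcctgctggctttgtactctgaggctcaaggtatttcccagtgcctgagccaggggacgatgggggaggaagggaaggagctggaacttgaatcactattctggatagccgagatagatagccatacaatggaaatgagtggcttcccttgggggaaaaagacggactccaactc
Igfbp4, chr11:99040994-99041293, plus strand: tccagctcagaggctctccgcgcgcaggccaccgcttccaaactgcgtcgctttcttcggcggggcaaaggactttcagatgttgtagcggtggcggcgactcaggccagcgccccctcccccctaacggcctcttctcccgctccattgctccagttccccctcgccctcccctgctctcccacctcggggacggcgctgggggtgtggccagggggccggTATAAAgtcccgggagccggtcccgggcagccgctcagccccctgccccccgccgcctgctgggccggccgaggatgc
Igfbp2, chr1:72824230-72824529, plus strand: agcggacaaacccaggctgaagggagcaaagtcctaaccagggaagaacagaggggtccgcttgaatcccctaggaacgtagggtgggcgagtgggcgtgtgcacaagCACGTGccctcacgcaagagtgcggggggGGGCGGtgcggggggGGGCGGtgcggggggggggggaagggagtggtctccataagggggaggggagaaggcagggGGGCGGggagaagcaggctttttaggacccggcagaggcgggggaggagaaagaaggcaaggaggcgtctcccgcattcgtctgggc

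The 3 regions share none of these motifs. The Igf1 window holds none of the 4, and its GC content of 52.3% was close to the median of 52.7% over 32851 promoters of the same length. This window lies inside the annotated gene, which begins at chr10:87858265, and starts further upstream were not searched. The Igfbp4 window has 1 TATA box that begins at position -28 from the start, a motif found in 13.6% of all promoters, and a GC content of 71.3%, above the upper quartile of 61.7%. The Igfbp2 window has 67% GC, with GC boxes that begin at positions -113, -98 and -37 and an E-box that begins at -142, counted from the start. A GC box was found in 35.7% of all promoters and this E-box in 7.15%. The RUNX core, found in 16.8% of all promoters, was in none of the 3 windows, and no printed matches overlap. These are matches of letters and not measured binding sites.

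Of the receptors, neither passed the test. Igf1r, the signalling receptor (chr7:67952827-68233668, plus strand), was at 3.25, 3.69 and 3.09 FPKM in PAKG and at 3.34, 4.42 and 3.77 FPKM in OC. The groups overlapped, although each PAKG library was below the OC library of the same number. This gave a log2 fold change of -0.19 (SE 0.124, 95% interval -0.48 to 0.10, limma adjusted p = 0.366).

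Igf2r, the scavenger and sorting receptor (chr17:12682406-12769664, minus strand), was at 13.39, 21.61 and 14.84 FPKM in PAKG and at 12.98, 19.45 and 12.92 FPKM in OC. Replicate 2 was the highest library of each group, and the difference between replicates was larger than that between groups. The log2 fold change was 0.13 (SE 0.216, 95% interval -0.37 to 0.63, limma adjusted p = 0.745), and without PAKG replicate 2 it was -0.07. Igf2r is an imprinted gene, and the antisense transcript Airn starts inside it. Airn was at 0.9, 0.89 and 0.74 FPKM in PAKG and at 0.73, 0.6 and 0.72 FPKM in OC, with a log2 fold change of 0.27 (SE 0.172, limma adjusted p = 0.359).

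**Figure D2:**
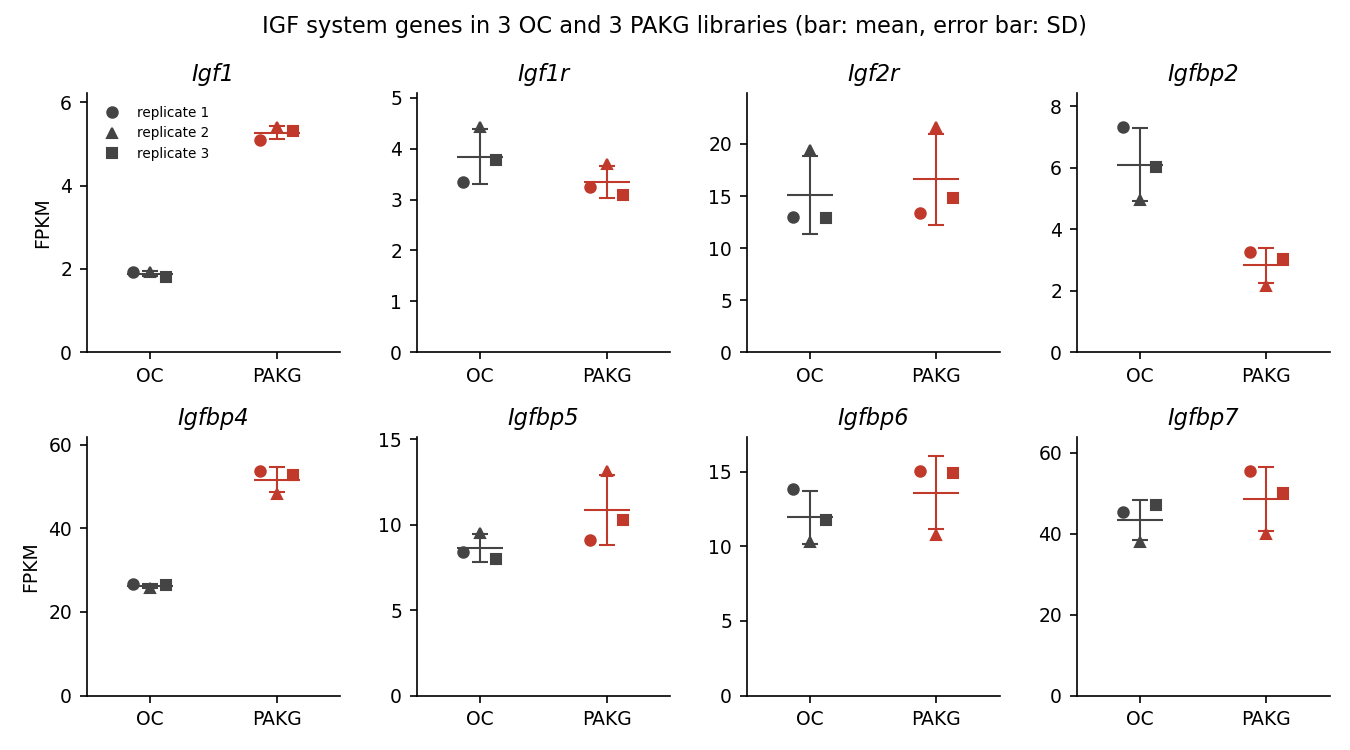
FPKM (y axis, from 0) of the 8 IGF genes in the 3 OC and 3 PAKG libraries, with a marker shape for each replicate number, a horizontal bar for the mean and an error bar for the SD. Igf1 and Igfbp4 are higher in all PAKG libraries, Igfbp2 is lower, and the other 5 genes overlap.

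Among the binding proteins, Igfbp4 moved up and Igfbp2 down. Igfbp4 encodes a small binding protein known mainly as an inhibitor of IGF action, which is cut by the protease PAPP-A. It lies at chr11:99041244-99054392 on the plus strand (ENSMUSG00000017493), with a longest transcript of 3831 bases in 4 exons. Igfbp4 was at 53.76, 48.15 and 52.85 FPKM in PAKG and at 26.65, 25.79 and 26.38 FPKM in OC. The OC libraries were within 1 FPKM of each other, and the lowest PAKG library was over 20 FPKM above them. The means were 51.6 ± 3.01 FPKM and 26.3 ± 0.440 FPKM (SD, n = 3 each), a log2 fold change of 0.97 (SE 0.0686, 95% interval 0.81 to 1.13, limma adjusted p = 0.000327). Igfbp4 thus lay just under 2-fold with the deposited FPKM, and just over it after TPM rescaling (1.02) or without PAKG replicate 2 (1.02).

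Igfbp2 encodes a binding protein that can also bind integrins and proteoglycans at the cell surface. It lies at chr1:72824503-72852474 on the plus strand (ENSMUSG00000039323), with a longest transcript of 1307 bases in 4 exons. Igfbp2 was at 3.25, 2.16 and 3.04 FPKM in PAKG and at 7.31, 4.95 and 6.03 FPKM in OC. Replicate 2 was the lowest library of each group, and the highest PAKG library was below the lowest OC library. The means were 2.82 ± 0.578 FPKM and 6.10 ± 1.18 FPKM (SD, n = 3 each). The log2 fold change was -1.09 (SE 0.187, 95% interval -1.53 to -0.65, limma adjusted p = 0.00886). The call at the adjusted p was made without any 1 library, but the change was smaller than 2-fold without OC replicate 1 (-0.95), without PAKG replicate 2 (-0.92) and with a pseudocount of 1 (-0.89).

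Igfbp5 lies next to Igfbp2 on chromosome 1, at chr1:72857932-72874884 on the minus strand. The 2 genes are tail to tail, 5.5 kb apart, with no annotated gene between them. Igfbp5, an abundant binding protein of bone matrix, was at 9.13, 13.15 and 10.28 FPKM in PAKG and at 8.42, 9.51 and 7.97 FPKM in OC. Each PAKG library was above the OC library of the same number, but PAKG replicate 1 was below OC replicate 2. The log2 fold change was 0.31 (SE 0.139, 95% interval -0.01 to 0.64, limma adjusted p = 0.185), and with the replicate block it was called (SE 0.0775, limma adjusted p = 0.0326). Its neighbour Igfbp2 had a log2 fold change of the opposite sign.

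Igfbp6 binds IGF2 in preference to IGF1 and lies at chr15:102144362-102149511 on the plus strand. Igfbp6 was at 15.06, 10.75 and 14.93 FPKM in PAKG and at 13.81, 10.26 and 11.74 FPKM in OC. Its log2 fold change was 0.18 (SE 0.158, 95% interval -0.19 to 0.55, limma adjusted p = 0.514). Igfbp7 encodes a secreted protein that binds IGFs weakly and lies at chr5:77349240-77408041 on the minus strand, where it overlaps Polr2b on the opposite strand. Igfbp7 was at 55.61, 39.99 and 50.07 FPKM in PAKG and at 45.39, 37.94 and 47.03 FPKM in OC. Its log2 fold change was 0.15 (SE 0.136, 95% interval -0.16 to 0.47, limma adjusted p = 0.517). For both genes every PAKG library was above the OC library of the same number, and replicate 2 was the lowest of each group.

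**Figure D3:**
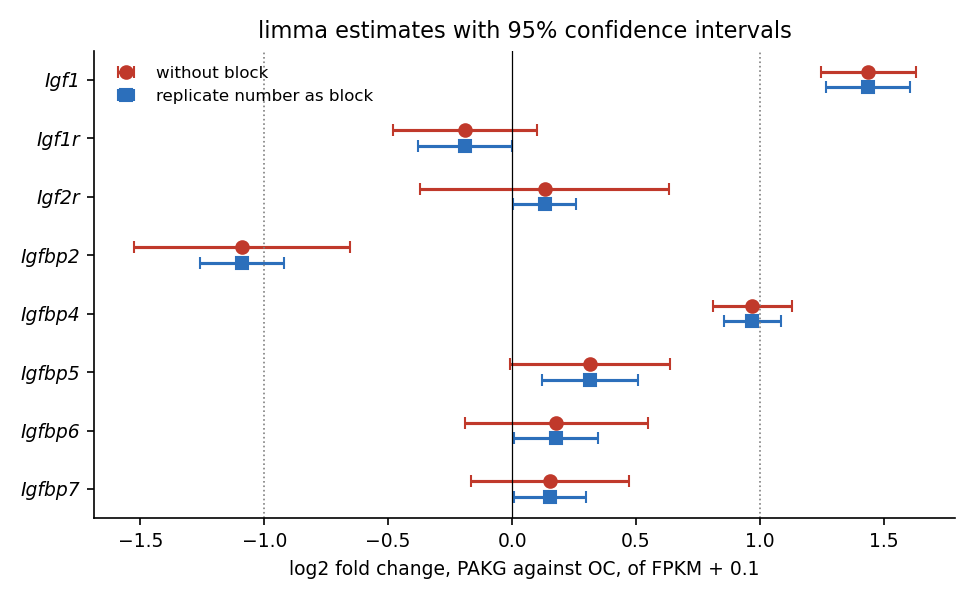
limma log2 fold changes of FPKM + 0.1, PAKG against OC (x axis), with 95% confidence intervals for the 8 IGF genes (y axis), without a block (red circles) and with a replicate block (blue squares). Dotted lines mark 2-fold in either direction. The intervals of Igf1, Igfbp4 and Igfbp2 exclude 0 in both fits, and with the block those of all 8 genes do. The intervals are not adjusted for the number of genes, and of the genes added by the block only Igfbp5 was called. The block narrows the intervals of Igf2r and Igfbp2 most.

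The order of levels per length differed between the groups at its top and its bottom. In OC, Igfbp7 was highest at 43.5 ± 4.85 FPKM, followed by Igfbp4, Igf2r at 15.1 ± 3.75, Igfbp6 at 11.9 ± 1.78, Igfbp5 at 8.63 ± 0.792, Igfbp2, Igf1r at 3.84 ± 0.544 and Igf1 (SD, n = 3). Only Igf2r and Igfbp6 overlapped among neighbours in that order. In PAKG, Igfbp4 and Igfbp7 overlapped at the top, with Igfbp7 at 48.6 ± 7.92 FPKM. They were followed by Igf2r at 16.6 ± 4.39, which overlapped Igfbp6 at 13.6 ± 2.45, which in turn overlapped Igfbp5 at 10.9 ± 2.07. Igf1 came sixth, above Igf1r at 3.34 ± 0.311 FPKM, and Igfbp2 was last and overlapped Igf1r. Igf1 therefore moved from below Igf1r in every OC library to above it in every PAKG library.

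The make-up of the binding protein mRNA was described as the share of each gene in the summed FPKM of the 5 binding proteins analysed. These shares are not independent of each other or of the fold changes above, and were not tested. Igfbp4 made up 39.3, 42.2 and 40.3% in PAKG and 26.2, 29.2 and 26.6% in OC. Igfbp7 made up 40.6, 35.0 and 38.2% in PAKG and 44.7, 42.9 and 47.4% in OC. Igfbp2 made up 2.38, 1.89 and 2.32% in PAKG and 7.20, 5.60 and 6.08% in OC. Igfbp6 made up 11.0, 9.41 and 11.4% in PAKG and 13.6, 11.6 and 11.8% in OC. For each of these 4 genes the groups did not overlap, narrowly so for Igfbp6, and the share of Igfbp4 was higher in PAKG and those of Igfbp7, Igfbp2 and Igfbp6 were lower. The shares of Igfbp5 overlapped, with means of 8.68 ± 2.53% in PAKG and 9.03 ± 1.5% in OC (SD, n = 3). Replicate 2, which differed by transcript length, had the highest shares of Igfbp4 and Igfbp5 in each group. It also had the lowest shares of Igfbp2, Igfbp6 and Igfbp7, the genes with the shortest transcripts.

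The sum of the 5 genes was 127 ± 11.8 FPKM in PAKG and 96.4 ± 6.99 FPKM in OC. Igf1 equalled 3.73, 4.73 and 4.05% of that sum in PAKG and 1.89, 2.17 and 1.83% in OC. The ligand was thus higher against its binding proteins in every PAKG library, although the binding proteins were also higher in sum. The ratio of Igfbp4 to Igf1 was 9.80 ± 0.823 in PAKG and 14.0 ± 0.576 in OC, and that of Igfbp4 to Igfbp2 was 18.7 ± 3.11 and 4.41 ± 0.783. These are ratios of mRNA levels and say nothing of protein.

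**Figure D4:**
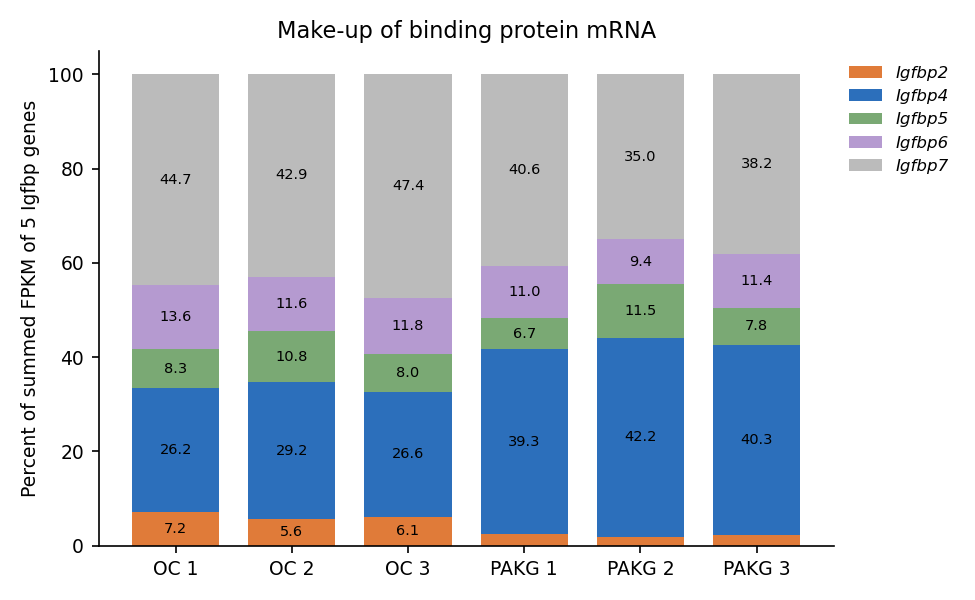
Share of each binding protein gene in the summed FPKM of the 5 analysed (y axis, percent) for each of the 6 libraries (x axis), with the percent printed in segments of 4% or more. The Igfbp4 segment is 26.2 to 29.2% in OC and 39.3 to 42.2% in PAKG, and the Igfbp2 segment is 5.60 to 7.20% in OC and 1.89 to 2.38% in PAKG.

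The genes that act around the IGF system were taken from 6 lists, of which Ins2, Insrr, Igfbp1, Igfbpl1, Stc1, Stc2, Irs4 and Dlk1 were not analysed here. The list of other ligands, receptors and binding proteins had 4 tested genes. These were Insr and the RNA-binding protein genes Igf2bp1, Igf2bp2 and Igf2bp3, so Insr was the only tested gene of the named kind. With limma, 0 of the 4 were called in either direction. At an unadjusted p under 0.05 there was 1, Igf2bp3, which was lower. Of all genes, 12% were higher and 16.8% lower at that p. The median log2 fold change of the 4 was -0.102, beside -0.032 over all genes. Insr, the insulin receptor, which can pair with the IGF1 receptor, was at 2.06, 2.65 and 2.12 FPKM in PAKG and at 1.55, 2.10 and 1.87 FPKM in OC (log2 fold change 0.29, SE 0.150, limma adjusted p = 0.248). Neither Igf1r nor Insr was called. The ratio of Igf1r to Insr was 1.48 ± 0.0940 in PAKG and 2.09 ± 0.0703 in OC, and did not overlap. That of Igf2r to Igf1r was 4.9 ± 0.87 in PAKG and 3.9 ± 0.49 in OC, and overlapped. These ratios were not tested, and no share of other gene pairs that do not overlap was taken. Igf2bp1, Igf2bp2 and Igf2bp3, which bind RNA, had log2 fold changes of -0.18, -0.03 and -0.22 (limma adjusted p = 0.311, 0.93 and 0.136). After TPM rescaling, with its lower filter, 1 gene of the list was called, higher, beside 5.54% higher and 4.81% lower of all genes. With the 12590 genes of the main test and the relative size of the pseudocount kept, TPM rescaling called 0 of the list.

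Igfals, which encodes the acid-labile subunit that holds IGF complexes in blood, fell under the filter, and is named because of its values. Igfals was at 0.88, 0.74 and 0.66 FPKM in PAKG and at 0.07, 0.34 and 0.03 FPKM in OC, so that the groups did not overlap. Without a filter, its log2 fold change was 2.00 (SE 0.464, limma adjusted p = 0.0644 over 25742 genes).

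Of 6 tested genes for proteases that cut binding proteins, 1 was higher and 0 were lower. Among all genes tested, 5.97% were higher and 8.73% lower. The median log2 fold change of the 6 was 0.245, beside -0.032 over all genes. Htra1, a secreted serine protease that cuts several binding proteins, was at 68.66, 56.86 and 68.27 FPKM in PAKG and at 35.43, 33.46 and 32.85 FPKM in OC (log2 fold change 0.92, SE 0.0900, limma adjusted p = 0.000928). Htra1 overlaps Fgfr2 on the opposite strand. Htra3, a related protease, had a log2 fold change of 0.52 (limma adjusted p = 0.0541). The metalloprotease genes Pappa and Pappa2 had log2 fold changes of opposite signs. Pappa, for PAPP-A, was at 1.12, 1.75 and 1.13 FPKM in PAKG and at 1.52, 2.52 and 1.88 FPKM in OC (log2 fold change -0.53, SE 0.230, limma adjusted p = 0.175). Pappa2 was at 37.68, 63.02 and 42.95 FPKM in PAKG and at 29.45, 44.26 and 31.28 FPKM in OC (log2 fold change 0.44, SE 0.217, limma adjusted p = 0.232). In both genes replicate 2 was the highest library of each group. With the replicate block, which called 12.3% of all genes higher and 17.1% lower, 3 of the 6 were higher (Htra1, Htra3 and Pappa2) and 1 was lower (Pappa), with limma adjusted p of 0.0312 for Htra3, 0.00295 for Pappa2 and 0.0163 for Pappa.

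Of 19 tested genes for signalling just below the receptor, 2 were higher and 2 lower. Their median log2 fold change was -0.065, beside -0.032 over all genes. Over all genes, 5.97% were called higher and 8.73% lower. Irs2, an insulin receptor substrate, was at 1.03, 1.56 and 1.30 FPKM in PAKG and at 2.30, 2.92 and 2.75 FPKM in OC (log2 fold change -0.99, SE 0.168, limma adjusted p = 0.00836). Irs1, another such substrate, stood higher, at 36.22, 45.61 and 39.37 FPKM in PAKG and at 34.71, 40.65 and 37.81 FPKM in OC. Irs1 was not called (log2 fold change 0.095, SE 0.103, limma adjusted p = 0.599). Grb14, an adaptor known to inhibit insulin receptor signalling, was at 6.38, 5.12 and 6.47 FPKM in PAKG and at 3.52, 3.62 and 3.39 FPKM in OC (log2 fold change 0.75, limma adjusted p = 0.00405). Pik3r2, a PI3K regulatory subunit, was higher (log2 fold change 0.30, limma adjusted p = 0.0343). With the replicate block, 3 of the 19 were higher and 5 lower, beside 12.3% higher and 17.1% lower of all genes. TPM rescaling gave 2 higher and 1 lower, beside 5.54% higher and 4.81% lower of all genes.

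Of 9 tested genes of the growth hormone axis and other regulators of Igf1, 3 were higher, 0 lower and 6 not called. The shares over all genes were 5.97% higher and 8.73% lower. The median log2 fold change of the list was 0.181, beside -0.032 over all genes. Pth1r, the parathyroid hormone receptor through which the hormone is known to raise Igf1 in osteoblasts, was at 139.62, 126.73 and 136.01 FPKM in PAKG and at 61.31, 52.68 and 56.51 FPKM in OC. Its log2 fold change was 1.24 (SE 0.0805, limma adjusted p = 0.000278). Pth1r overlaps Myl3 on the opposite strand. Ghr, the growth hormone receptor, and Jak2, the kinase bound to it, had log2 fold changes of 0.33 and 0.28 (limma adjusted p = 0.0431 and 0.0346). Stat5a, the factor the kinase activates, had 0.35 (limma adjusted p = 0.072). With the replicate block Stat5a was called as well (limma adjusted p = 0.0173), which made 4 of the 9 higher, beside 12.3% of all genes. After TPM rescaling 1 gene of this list was called, higher, beside 5.54% of all genes.

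Genes of the mannose 6-phosphate route, whose tagged enzymes Igf2r carries, had 0 calls with limma in either direction among 7 tested, and 2 at an unadjusted p under 0.05, both higher, which 12% of all genes were. Their median log2 fold change was 0.085, beside -0.032 over all genes. Gga2, a coat adaptor, had a log2 fold change of 0.30 (limma adjusted p = 0.0557). Gnptg and Gnptab, subunits of the enzyme that makes the tag, had 0.38 and -0.19 (limma adjusted p = 0.111 and 0.266). Gga1, a related adaptor, had 0.12 (limma adjusted p = 0.357). TPM rescaling gave 1 call, higher, beside 5.54% of all genes. The replicate block gave 3, with Gga2 and Gnptg higher and Gnptab lower, beside 12.3% higher and 17.1% lower of all genes.

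Of 5 tested genes from the imprinted network around Igf2, 2 were higher, 1 lower and 2 not called. Among all genes tested, 5.97% were higher and 8.73% lower. The median log2 fold change of the 5 was 0.268, beside -0.032 over all genes. Plagl1, a zinc finger factor of that network, was at 27.56, 37.49 and 28.87 FPKM in PAKG and at 12.27, 15.05 and 12.44 FPKM in OC (log2 fold change 1.23, SE 0.135, limma adjusted p = 0.00145). Gatm, an enzyme of creatine synthesis, was at 0.61, 0.71 and 0.50 FPKM in PAKG and at 1.40, 1.23 and 1.55 FPKM in OC (log2 fold change -1.09, limma adjusted p = 0.00703). Dcn, the matrix proteoglycan decorin, was higher (0.27, limma adjusted p = 0.0323), and Mest, a hydrolase, had -0.13 (limma adjusted p = 0.231). H19, Cdkn1c, Meg3, Peg3 and Slc38a4 were under the filter, at no more than 0.5 FPKM in any library.

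**Figure D5:**
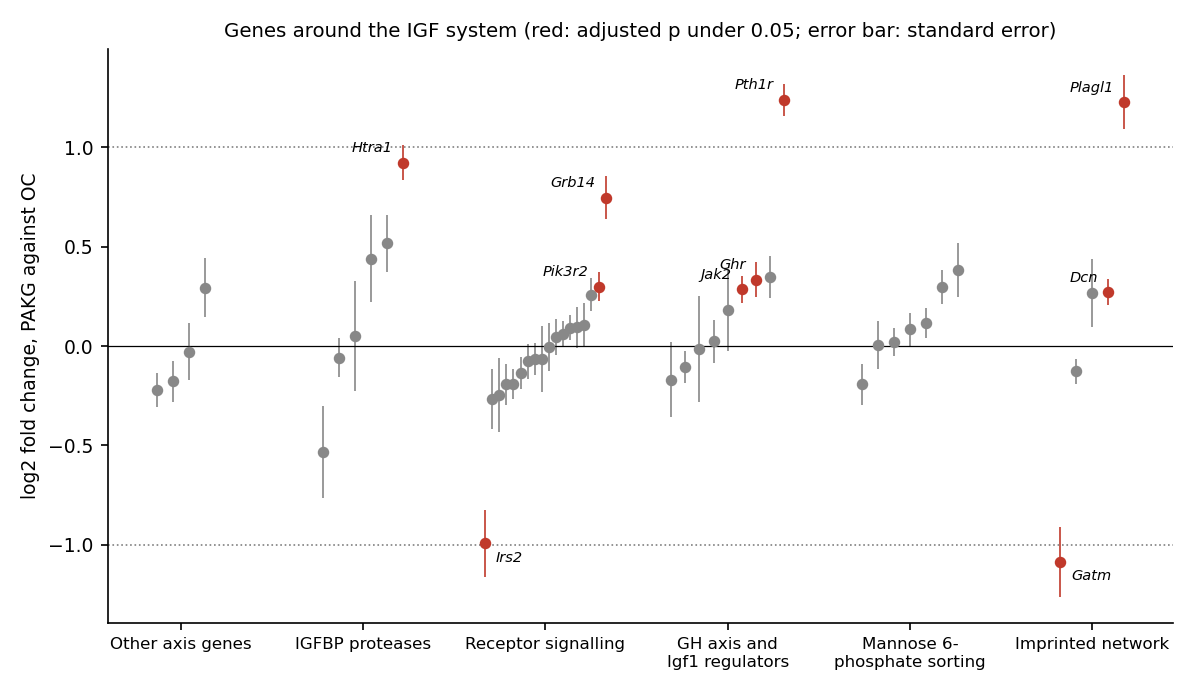
limma log2 fold change, PAKG against OC (y axis), with its standard error for the reported genes of the 6 lists around the IGF system (x axis), in red and named where the adjusted p was under 0.05. Dotted lines mark 2-fold in either direction. Pth1r, Plagl1 and Gatm pass 2-fold, and Irs2 and Htra1 lie just inside it.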

How the data were processed

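RNA-Seq values of 3 PAKG and 3 OC libraries were used, grouped and numbered by the sample labels. The authors deposited FPKM per gene. The submitters' processing notes list cutadapt, FastQC, HISAT2 and StringTie with build GRCm38, without versions, and the authors used DESeq2 for their own comparison. Because FPKM hold no raw counts, no count test was run. Fragment numbers were estimated from the steps between small FPKM values of genes of 300 to 1000 bases. Gene positions came from GENCODE M21 (26123 of 26187 IDs), promoters from RefSeq.

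Genes averaging 0.5 FPKM or more (12590) were fitted on the log2(FPKM + 0.1) scale with limma 3.58.1 (lmFit, eBayes with trend) in R 4.3.3, and 2-sided p-values were adjusted by Benjamini-Hochberg. Fold changes on this scale understate those of low genes. The steps were tested on simulated data with independent noise in each library. That test does not cover the deviations shared by same-numbered libraries. Figures were made in Python 3.11.15 with matplotlib 3.10.9. Named genes are all IGF genes and up to 4 tested genes of each list by adjusted p, except 1 gene of the receptor signalling list that is counted but not reported here. The IGF genes and lists were chosen with earlier results of these data known. The shares were planned over 6 binding proteins, of which 5 were analysed.

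Deviations from the group means correlated between same-numbered libraries at 0.192 to 0.430 in all 3 pairs, and at -0.312 to 0.138 otherwise. This hint comes from the data, since the sources used here do not say what the number marks. Whether libraries came from separate cultures is not stated either, so p-values measure only the spread between libraries. Alternatives were other pseudocounts and filters, TPM and median-ratio scaling, no trend, the replicate block and each library left out.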

Additional observations from a re-analysis of the deposited data

How the results depend on the processing

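Of 128 fold changes of the 8 IGF genes under 16 alternatives, 126 kept their direction and their side of the adjusted p of 0.05. Igfbp5 was called with the replicate block (0.31, limma adjusted p = 0.0326), and Igf2r ranged from -0.073 (without PAKG replicate 2) to 0.326 (without OC replicate 2). Other genes that were not called also moved by over 1.5 times with 1 library left out. Igfbp5 had 0.17 without PAKG replicate 2 and 0.43 without PAKG replicate 1, and Igfbp6 0.34 without PAKG replicate 2 and 0.08 without OC replicate 2. Igfbp7 had 0.29 without PAKG replicate 2 and 0.05 without PAKG replicate 1, and Igf1r -0.28 without OC replicate 1 and -0.09 without OC replicate 2. At the adjusted p alone, 3 IGF genes were called with every library left out in turn, and at 2-fold between 1 and 2. A pseudocount of 1 left 1 IGF gene at 2-fold, and over all genes 90 in place of 182. With each library left out, 168 to 226 genes passed both thresholds and 831 to 2227 the adjusted p alone, in place of 1850. Leaving out PAKG replicate 1 gave 1117, PAKG replicate 3 gave 831, OC replicate 1 gave 1113 and OC replicate 3 gave 871. The replicate block gave 3711 of 12590 genes, 12.3% higher and 17.1% lower. Among them were 4 of 6 proteases, 8 of 19 receptor signalling genes, 4 of 9 of the growth hormone axis and 3 of 7 mannose 6-phosphate genes. The block changed no other call of an IGF gene.

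TPM rescaling, with 0.5 TPM as filter and 0.1 TPM as pseudocount, tested 14870 genes and called 5.54% of them higher and 4.81% lower. It called 1 gene in the list that held Insr, Igfals and the Igf2bp genes, and 1 of the growth hormone axis. It also called 1 of the mannose 6-phosphate list and 3 of receptor signalling in place of 4. A version that kept the 12590 genes and the relative size of the pseudocount was added after the TPM results had been seen. It called 0, 1 and 1 genes in these lists, and 53.3% of its calls were higher. Leaving out replicate 2 of both groups, also added after the data were seen, gave 1.43 for Igf1, 1.00 for Igfbp4 and -1.05 for Igfbp2, all called. The causes of these shifts were not tested. With 3 libraries a group, the fold change of Igf2r had an interval from -0.37 to 0.63.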
